A study of Homo sapiens with 36 samples.

Results

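OE33 and FLO1 are established human cell lines of oesophageal adenocarcinoma, a cancer of the lower oesophagus that arises in tissue exposed to reflux of acid and bile. The response to acidic bile salts (ABS) in OE33 was set against that in FLO1, in cells that carried a non-targeting control shRNA (shControl). The difference was (OE33 shControl ABS minus OE33 shControl unexposed) minus (FLO1 shControl ABS minus FLO1 shControl unexposed), with 3 independent biological replicates in each of the 4 groups. Exposed cells received a bile salt cocktail of 200 µM at pH 4.0 for 20 min and recovered for 6 h in complete medium, and the handling of unexposed cells is not given in the sources used here. All 12 libraries came from stably transduced cells. OE33 was grown in RPMI1640 and FLO1 in DMEM, so line and medium cannot be told apart. Genes were kept where the mean over the 6 shControl libraries was at least 1 CPM (the count scaled to 1000000 counts per library) in both lines, which left 11393 of the 57500 genes in the table. All 11393 were among the 18199 genes that passed the filter on low counts and were tested. The 24 libraries from cells depleted of APE1, an endonuclease of base excision repair, with shAPE1#1 or shAPE1#3, entered the fit and gave the same difference a measurement in other cells.

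Cells that meet acid and detergent-like bile salts can draw on several stress programmes. Damaged proteins in the cytosol release heat shock factor, which turns on chaperone genes, while misfolded proteins in the endoplasmic reticulum (ER) turn on the unfolded protein response. Growth factor and stress kinases induce the immediate early genes, which encode short-lived transcription factors such as FOS and EGR1. NRF2 induces enzymes of glutathione and thioredoxin metabolism upon oxidative stress, and SREBP factors raise sterol synthesis when membrane sterol is low.

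The 12 shControl libraries were sequenced to a depth at which 1 CPM stood for 21.8 to 32.2 reads. OE33 expressed the 10 epithelial markers at a summed level of 25700 to 27900 CPM. In FLO1 the sum was 2450 to 3090 CPM, with 6 of the 10 at a mean of at least 1 CPM, and EPCAM averaged 0.470 CPM in exposed and 0.981 CPM in unexposed FLO1 cells. APEX1, the gene of APE1, lay between 171 and 202 CPM in the shControl groups and between 20.8 and 38.2 CPM in the depleted ones. Of the 12, the library FLO1 ABS replicate 2 stood apart: its first principal component score within the line was 60.1, against -27.1 to -1.40 in the other 5. It also had the lowest depth, and its deviation from the mean of the other 2 replicates correlated, across genes, with their GC content at r = 0.59. The library OE33 ABS replicate 3 held 21.3 CPM of summed fibroblast markers, against 3.74 to 5.4 CPM in the other OE33 libraries, with 4.78 CPM of COL1A2 against 0 to 0.149 CPM. Their part in the results was not tested, but counts are given below with and without them.

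The responses to ABS differed between the lines for a small share of genes. The difference between lines was called (adjusted p under 0.05 over all genes tested) for 275 of the 11393 genes, which is 2.41%, against 1.73% of all 18199 genes tested. The response was higher in OE33 for 124 of them and lower for 151, where the background was 0.764% and 0.967%. In OE33 483 genes rose and 171 fell, where 3.24% and 1.07% of all genes tested did so and 4.31% were called either way. In FLO1 463 rose and 169 fell, where the background was 3.13% and 1.02%, and 4.15% either way. By these calls 108 genes were shared, meaning that they changed the same way in both lines, against 0.643% of all genes tested. Another 20 changed in opposite directions, against 0.11%. With a called difference between the lines and a call in 1 line, 110 genes were specific to OE33 (background 0.676%) and 117 to FLO1 (background 0.769%), and 22 had a called difference with no call in either line. The remaining 11016 genes were put in no class. They include genes called in 1 line whose difference between the lines was not called, and these were neither shared nor specific. Across genes, which are not independent replicates, the responses of OE33 and FLO1 correlated at Pearson's r = 0.23 and Spearman's rho = 0.29.

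**Figure D1:**
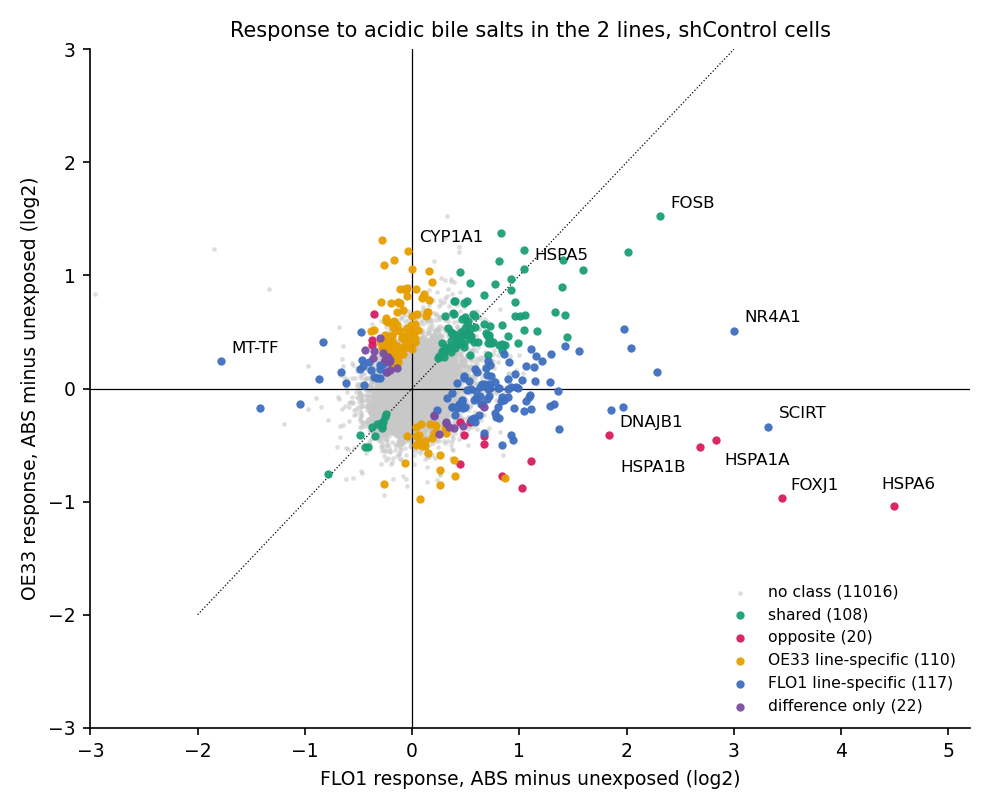
Response to ABS (exposed minus unexposed, log2) of the 11393 genes in OE33 (vertical axis) against FLO1 (horizontal axis), shControl cells, 3 libraries per group. Each point is 1 gene, coloured by class with the number in brackets; the dotted line marks equal responses. HSPA6 lies at -1.04 in OE33 and 4.49 in FLO1, and HSPA5 close to the line at 1.06 and 1.05.

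Large differences mostly ran one way. Of the 53 called differences of at least 1 on the log2 scale, 43 were lower in OE33 and 10 higher. The median called difference was -0.79 for the genes lower in OE33 and 0.62 for those higher, and the median over all 11393 genes was 0.01. Of the 275 genes, 139 were called when each of the 12 libraries was left out in turn, and 80 under all 20 alternatives tried, among them 38 of the 53 large ones. In these counts and in those of alternatives below, every gene passed the minimum of 5 CPM, because that alternative reuses the main fit. Genes at or above that minimum in both lines made up 227 of the 275. The total rests on single libraries and on the fit: it was 179 without OE33 ABS replicate 3, 798 without FLO1 ABS replicate 2 (522 higher and 276 lower), and 90 when only the 12 shControl libraries were fitted. All 275 kept their sign under each alternative.

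The most negative difference was that of an inducible heat shock gene, HSPA6, and 3 more of its list had a called fall in OE33 and a called rise in FLO1. HSPA6, a strictly inducible cytosolic HSP70, had 6.56, 6.72 and 7.26 CPM in exposed OE33 cells against 13.6, 15.1 and 14.1 CPM in unexposed OE33 cells. In FLO1 it had 25.1, 21.7 and 43.8 CPM in exposed against 1.18, 1.06 and 1.68 CPM in unexposed cells. The groups did not overlap in either line, and unexposed OE33 cells held more HSPA6 than unexposed FLO1 cells. It changed by -1.04 ± 0.21 (log2, standard error) in OE33 and by 4.49 ± 0.26 in FLO1, a difference of -5.53 ± 0.34 (adjusted p = 1.13e-14). HSPA1A, which encodes the main inducible HSP70, had 216, 226 and 246 CPM in exposed and 319, 320 and 315 CPM in unexposed OE33 cells. Exposed FLO1 cells had 796, 886 and 833 CPM and unexposed ones 120, 109 and 114 CPM. HSPA1A thus fell in OE33 and rose 7.13-fold in FLO1, with a difference of -3.29 ± 0.14 (adjusted p = 1.24e-18). HSPA1B, a near-identical copy whose reads could be split with HSPA1A, differed by -3.20 ± 0.14. The co-chaperone DNAJB1, which stimulates HSP70, had 257, 279 and 278 CPM in exposed against 368, 363 and 369 CPM in unexposed OE33 cells, and 460, 408 and 480 CPM in exposed against 116, 118 and 132 CPM in unexposed FLO1 cells, a difference of -2.25 ± 0.11 (adjusted p = 9.75e-18). HSPA6, HSPA1B and DNAJB1 kept their opposite calls under all 20 alternatives. HSPA1A kept them under 19, its OE33 response missing the threshold without OE33 ABS replicate 1 (adjusted p = 0.0512).

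**Figure D2:**
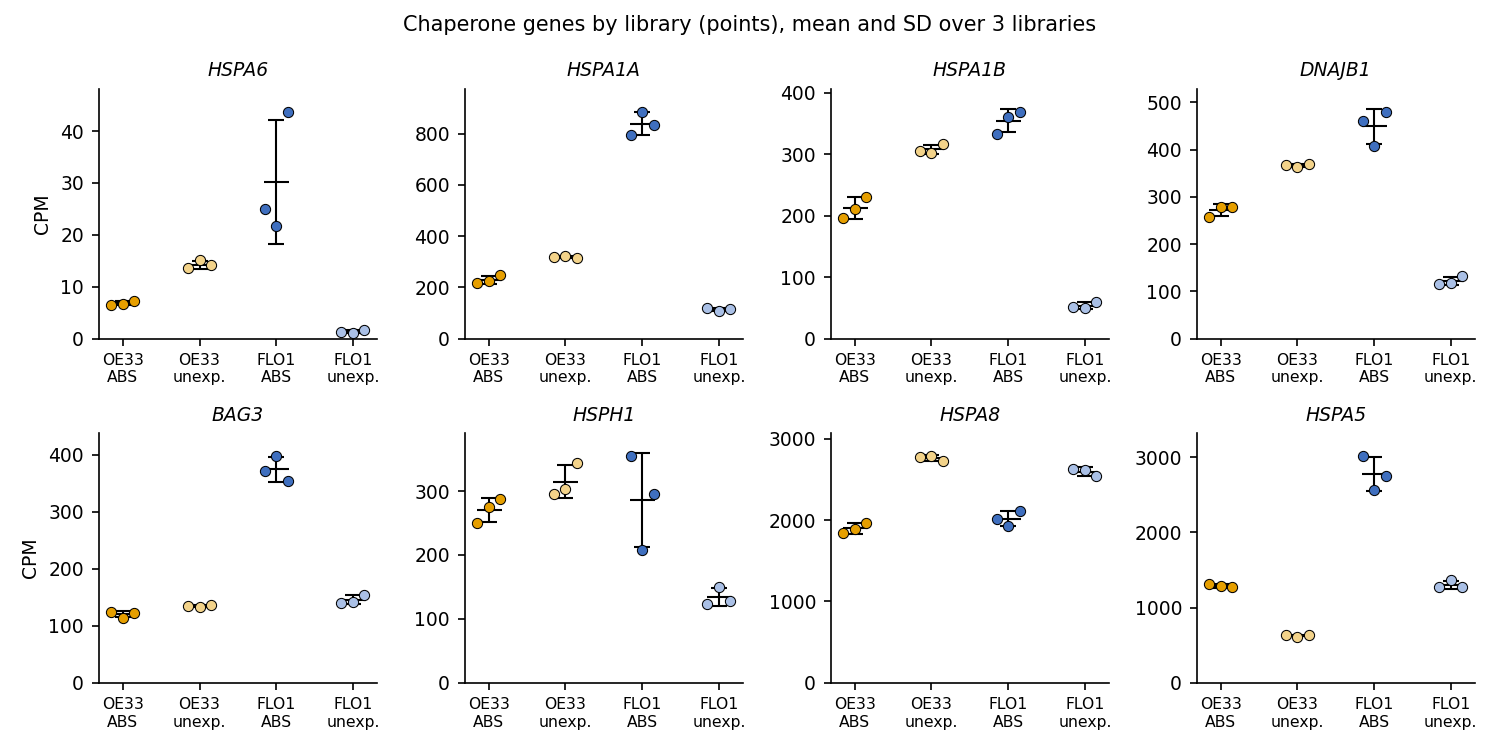
CPM of 8 chaperone genes in each library, by group, with the mean and SD of 3 libraries; each panel has its own axis from 0. HSPA6, HSPA1A, HSPA1B and DNAJB1 are lower in exposed than in unexposed OE33 cells and higher in exposed than in unexposed FLO1 cells, HSPA8 is lower in exposed cells of both lines and HSPA5 higher in both.

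Of all 24 measured genes on the chaperone list, 6 had a called lower response in OE33 and none a higher one, with a median difference of -0.22. In OE33 5 fell and 1 rose, while in FLO1 7 rose and 1 fell. BAG3, a co-chaperone that links HSP70 to autophagy, had 124, 114 and 122 CPM in exposed and 134, 132 and 137 CPM in unexposed OE33 cells, against 371, 398 and 354 CPM in exposed and 140, 142 and 155 CPM in unexposed FLO1 cells. Its response was called in FLO1 alone (1.32 ± 0.09) and differed by -1.46 ± 0.13. HSPH1, an HSP110 nucleotide exchange factor, likewise differed by -1.24 ± 0.14. HSPA8, the constitutive HSP70, fell in both lines: 1841, 1892 and 1971 CPM in exposed against 2775, 2790 and 2727 CPM in unexposed OE33 cells, and 2020, 1927 and 2108 CPM in exposed against 2634, 2619 and 2540 CPM in unexposed FLO1 cells. It changed by -0.52 ± 0.06 in OE33 and -0.41 ± 0.06 in FLO1. The abundant HSP90AB1 (0.07 in OE33 and -0.07 in FLO1) and HSP90AA1 (-0.15 and -0.03) did not pass the test in either line. Without FLO1 ABS replicate 2, or without both libraries that stood apart, 10 of the list were called lower in OE33. DNAJB5, another co-chaperone, also had opposite calls, with a difference of -1.90 ± 0.27 at 0.582 to 1.75 CPM in OE33. Its OE33 call was lost without OE33 ABS replicates 1 and 2 and without unexposed OE33 replicates 1 and 2.

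Heat shock factor binds arrays of the letters GAA and TTC, so the promoter windows of HSPA6 and HSPA8, which responded in opposite and in the same directions across lines, are shown. The windows are RefSeq's on GRCh38.p14, from 250 bases before to 50 after the start of the gene, at chr1:161524290-161524589 (plus strand) and chr11:123062087-123062386 (minus strand). Capitals mark matches, on either strand, to GAA, TTC and GAA in that order with 2 bases of any kind between them.
HSPA6: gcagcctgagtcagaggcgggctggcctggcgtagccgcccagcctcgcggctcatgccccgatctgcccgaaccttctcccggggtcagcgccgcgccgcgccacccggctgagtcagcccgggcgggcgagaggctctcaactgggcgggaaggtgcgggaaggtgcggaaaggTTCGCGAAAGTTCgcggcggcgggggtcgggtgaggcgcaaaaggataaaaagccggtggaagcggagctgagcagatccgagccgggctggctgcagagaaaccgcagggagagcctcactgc
HSPA8: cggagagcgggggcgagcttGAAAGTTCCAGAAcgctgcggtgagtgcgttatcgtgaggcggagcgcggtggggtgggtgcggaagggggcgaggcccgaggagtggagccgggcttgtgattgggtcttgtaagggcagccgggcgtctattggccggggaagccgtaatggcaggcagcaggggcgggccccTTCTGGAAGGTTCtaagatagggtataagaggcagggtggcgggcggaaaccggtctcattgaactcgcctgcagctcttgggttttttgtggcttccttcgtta
HSPA6 held 1 match and HSPA8 2. These letters occurred in 0.487% of 27305 promoter windows of this length and in 0.267% of the 8980 windows found for the genes studied. Of 22 chaperone genes on the list with a window, 6 held a match, among them 1 of the 6 with a called lower response in OE33. HSPA1A, HSPA1B, DNAJB1, BAG3 and HSPH1 held no match to this exact pattern. Other arrangements of the letters were not searched, so a window without a match can still hold a site.

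The list of immediate early genes and AP-1 subunits held 23 measured members, of which 16 rose in FLO1, against 6 that rose and 1 that fell in OE33, and 10 had a called lower response in OE33 (median difference -0.40). NR4A1, an orphan nuclear receptor induced within minutes of stimulation, had 5.43, 4.90 and 4.34 CPM in exposed and 3.53, 3.95 and 2.95 CPM in unexposed OE33 cells. In FLO1 it had 53.2, 64.9 and 51.4 CPM in exposed and 5.60, 5.39 and 9.71 CPM in unexposed cells. All 3 exposed FLO1 libraries lay above every other library. NR4A1 changed by 0.51 ± 0.19 in OE33 (adjusted p = 0.143) and by 3.00 ± 0.17 in FLO1, a difference of -2.49 ± 0.26 (adjusted p = 2.13e-08). NR4A2, its relative, differed by -2.13 ± 0.26. EGR1, a zinc finger factor downstream of ERK, had 20.0, 20.1 and 19.1 CPM in exposed and 20.3, 23.7 and 24.5 CPM in unexposed OE33 cells, against 52.1, 56.9 and 47.2 CPM in exposed and 13.0, 14.3 and 14.7 CPM in unexposed FLO1 cells (difference -2.04 ± 0.14). FOS, a subunit of the AP-1 factor, had 5.65, 4.68 and 5.24 CPM in exposed and 4.34, 4.76 and 3.26 CPM in unexposed OE33 cells. It had 22.7, 22.02 and 21.4 CPM in exposed and 2.69, 5.93 and 7.004 CPM in unexposed FLO1 cells, and differed by -1.68 ± 0.29 (adjusted p = 0.000437). ARC, a synaptic immediate early gene, differed by -1.45 ± 0.27 and MAFF, a small MAF factor, by -1.22 ± 0.14. When only the 12 shControl libraries were fitted, 6 of the list were called.

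Other members of the same family rose in both lines. ATF3, a stress-induced partner of JUN, had 12.9, 19.1 and 16.1 CPM in exposed and 7.39, 7.26 and 7.48 CPM in unexposed OE33 cells, and 168, 135 and 136 CPM in exposed against 46.2, 57.5 and 57.2 CPM in unexposed FLO1 cells. It rose by 1.14 ± 0.13 in OE33 and 1.41 ± 0.12 in FLO1, and the difference of -0.27 ± 0.17 did not pass the test (adjusted p = 0.602). FOSB, which pairs with JUN proteins, rose by 1.53 ± 0.28 in OE33 and 2.31 ± 0.24 in FLO1, with a difference of -0.78 ± 0.37 that did not pass (adjusted p = 0.384). DUSP5, a phosphatase of ERK, rose in FLO1 alone and differed by -0.71 ± 0.12, while DUSP10, a phosphatase of JNK and p38, rose in OE33 alone and differed by 0.58 ± 0.14. The DUSP10 call was lost without OE33 ABS replicate 2 and without unexposed OE33 replicate 1. It was also lost in the fit of the 12 shControl libraries and with no filter on low counts. Of 11 measured MAP kinase feedback genes 1 had a called higher response in OE33 and 1 a lower one, and 9 were not called.

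Among genes of the unfolded protein response, the central chaperone rose alike in both lines and 5 others differed. HSPA5, the ER-resident HSP70 also called BiP, had 1318, 1285 and 1267 CPM in exposed and 635, 613 and 632 CPM in unexposed OE33 cells. It had 3015, 2558 and 2748 CPM in exposed and 1273, 1362 and 1269 CPM in unexposed FLO1 cells. The rise was 1.06 ± 0.06 in OE33 and 1.05 ± 0.06 in FLO1, a difference of 0.01 ± 0.09. Of the 25 genes on the list 10 rose in OE33 and 12 in FLO1, none fell, and 5 had a called lower response in OE33 (median difference -0.08). The 5 were DNAJB9, HERPUD1, SDF2L1, XBP1 and MANF. DNAJB9, a co-chaperone of BiP, had 14.3, 13.5 and 16.4 CPM in exposed and 19.6, 17.4 and 20.73 CPM in unexposed OE33 cells, against 39.0, 19.4 and 30.1 CPM in exposed and 10.2, 12.8 and 10.1 CPM in unexposed FLO1 cells. Its exposed FLO1 values spread widely, lowest in replicate 2, but did not overlap the unexposed ones, and the difference was -1.73 ± 0.21 (adjusted p = 6.84e-07). HERPUD1, a component of ER-associated degradation, had 34.1, 34.6 and 36.4 CPM in exposed and 34.3, 37.3 and 36.9 CPM in unexposed OE33 cells, against 246, 191 and 202 CPM in exposed and 77.9, 84.0 and 79.6 CPM in unexposed FLO1 cells. It differed by -1.38 ± 0.12. XBP1, the transcription factor whose mRNA is spliced by IRE1, differed by -0.70 ± 0.10: 94.4, 92.8 and 95.6 CPM in exposed against 99.8, 97.1 and 103 CPM in unexposed OE33 cells, and 217, 186 and 205 CPM in exposed against 116, 133 and 132 CPM in unexposed FLO1 cells. MANF rose in both lines, by 0.51 ± 0.10 in OE33 and 1.16 ± 0.10 in FLO1.

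HSPA5 and XBP1 both carry the ER stress response element, the letters CCAAT and CCACG with 9 bases of any kind between them, in their promoter windows at chr9:125241294-125241593 (minus strand) and chr22:28800520-28800819 (minus strand) (RefSeq, GRCh38.p14), though the HSPA5 rise was shared and XBP1 rose in FLO1 alone. Capitals mark the match on either strand.
HSPA5: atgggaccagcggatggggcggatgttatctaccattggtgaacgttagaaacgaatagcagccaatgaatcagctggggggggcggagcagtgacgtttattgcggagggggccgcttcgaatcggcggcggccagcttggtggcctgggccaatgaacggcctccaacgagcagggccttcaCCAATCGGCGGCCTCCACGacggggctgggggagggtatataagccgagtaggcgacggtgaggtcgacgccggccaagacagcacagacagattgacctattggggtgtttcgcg
XBP1: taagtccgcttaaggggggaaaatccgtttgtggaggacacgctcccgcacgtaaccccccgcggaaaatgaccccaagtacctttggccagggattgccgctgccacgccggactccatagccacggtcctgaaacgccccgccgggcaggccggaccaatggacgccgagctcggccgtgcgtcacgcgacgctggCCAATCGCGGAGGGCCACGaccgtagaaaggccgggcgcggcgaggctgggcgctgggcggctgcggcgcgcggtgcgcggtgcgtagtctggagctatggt
The element was present in 6 of 24 list genes with a window, among them 1 of the 5 with a called lower response in OE33. It occurred in 0.0806% of all 27305 windows and in 0.156% of the 8980 windows of the genes studied. The element lay 66 to 48 bases before the start of HSPA5 and 52 to 34 bases before that of XBP1.

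Of 24 measured genes of sterol synthesis and uptake, 9 fell and none rose in OE33, while 6 rose and none fell in FLO1. The difference was called lower in OE33 for 10 and higher for none, and 14 were not called, with a median of -0.39. HMGCS1, which makes HMG-CoA for the mevalonate pathway, had 80.3, 89.7 and 87.0 CPM in exposed and 130, 138 and 145 CPM in unexposed OE33 cells. Exposed FLO1 cells had 154, 85.3 and 124 CPM and unexposed ones 85.4, 94.4 and 77.2 CPM. In FLO1 the groups overlapped, through replicate 2 of the exposed group. The gene changed by -0.67 ± 0.10 in OE33 and 0.45 ± 0.10 in FLO1, a difference of -1.11 ± 0.14 (adjusted p = 3.46e-06), and its FLO1 call was lost without FLO1 ABS replicate 1. STARD4, a cholesterol carrier, had 3.36, 4.50 and 4.19 CPM in exposed and 5.38, 6.63 and 7.04 CPM in unexposed OE33 cells, against 35.5, 14.5 and 25.03 CPM in exposed and 10.8, 12.2 and 10.5 CPM in unexposed FLO1 cells (difference -1.75 ± 0.24). IDI1, which isomerises isopentenyl diphosphate, differed by -0.89 ± 0.16, and MVK, mevalonate kinase, by -1.17 ± 0.17 with a call in OE33 alone. When only the 12 shControl libraries were fitted, 5 of the list were called, and without FLO1 ABS replicate 2 it was 12.

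Of 24 measured p53 target genes 7 rose in FLO1, none was called in OE33, and 6 had a called lower response in OE33. The median difference over the list was -0.03. GADD45A, a stress sensor that arrests the cell cycle, had 37.2, 37.4 and 35.1 CPM in exposed and 47.8, 43.8 and 41.0 CPM in unexposed OE33 cells, against 216, 191 and 200 CPM in exposed and 107, 123 and 112 CPM in unexposed FLO1 cells (difference -1.04 ± 0.13). CDKN1A, the inhibitor p21, had 76.0, 79.0 and 76.8 CPM in exposed and 75.7, 74.5 and 78.0 CPM in unexposed OE33 cells, against 144, 169 and 165 CPM in exposed and 89.8, 88.8 and 104 CPM in unexposed FLO1 cells (difference -0.68 ± 0.11). MDM2, a direct p53 target, had a response of 0.01 in OE33 and -0.20 in FLO1, and neither passed the test. In the fit of the 12 shControl libraries 1 gene of the list was called. DDIT3, the pro-apoptotic factor CHOP of the integrated stress response, had 10.5, 9.11 and 9.46 CPM in exposed and 14.3, 12.9 and 11.5 CPM in unexposed OE33 cells, against 60.6, 41.3 and 51.5 CPM in exposed and 31.4, 32.7 and 28.8 CPM in unexposed FLO1 cells. It differed by -1.07 ± 0.16. ATF4, the transcription factor that leads that response, moved the other way, with a difference of 0.51 ± 0.11 (adjusted p = 0.00942). It had 410, 365 and 356 CPM in exposed and 273, 269 and 263 CPM in unexposed OE33 cells. In FLO1 it had 616, 610 and 604 CPM in exposed and 603, 596 and 576 CPM in unexposed cells. The ATF4 call was lost in the fit of the 12 shControl libraries (adjusted p = 0.0839). Of 21 measured genes of the integrated stress response, 2 had a called higher response in OE33 and 1 a lower one. The other 18 were not called, and the median difference was 0.13.

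Several antioxidant genes rose in OE33. Of 20 measured NRF2 targets 8 rose in OE33 and 2 in FLO1, none fell, and 3 had a called higher response in OE33 (median difference 0.16). TXNRD1, thioredoxin reductase, had 966, 982 and 974 CPM in exposed and 629, 637 and 691 CPM in unexposed OE33 cells. In FLO1 it had 1450, 1112 and 1311 CPM in exposed and 1396, 1519 and 1302 CPM in unexposed cells, which overlapped. Its response was 0.60 ± 0.07 in OE33 and -0.17 ± 0.07 in FLO1, a difference of 0.77 ± 0.10 (adjusted p = 1.68e-06). GCLM and GCLC encode the subunits of the enzyme that limits glutathione synthesis. GCLM had 92.9, 95.5 and 107 CPM in exposed and 57.6, 60.9 and 70.8 CPM in unexposed OE33 cells, against 144, 110 and 134 CPM in exposed and 109, 139 and 115 CPM in unexposed FLO1 cells, and differed by 0.62 ± 0.12. GCLC differed by 0.52 ± 0.10. HMOX1, haem oxygenase, rose in OE33 (0.64 ± 0.17) from a far lower level, 3.63 to 4.20 CPM in unexposed OE33 cells beside 698 to 749 CPM in unexposed FLO1 cells, and its difference of 0.39 ± 0.21 was not called. NQO1, a widely used NRF2 target, had responses of -0.01 in OE33 and -0.14 in FLO1. The number called was 6 without FLO1 ABS replicate 2, 5 without both libraries that stood apart, and 1 in the fit of the 12 shControl libraries.

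The promoter window of TXNRD1 at chr12:104215529-104215828 (plus strand) (RefSeq, GRCh38.p14) is shown because it held the core letters of the antioxidant response element, TGACNNNGC, marked in capitals on either strand.
TXNRD1: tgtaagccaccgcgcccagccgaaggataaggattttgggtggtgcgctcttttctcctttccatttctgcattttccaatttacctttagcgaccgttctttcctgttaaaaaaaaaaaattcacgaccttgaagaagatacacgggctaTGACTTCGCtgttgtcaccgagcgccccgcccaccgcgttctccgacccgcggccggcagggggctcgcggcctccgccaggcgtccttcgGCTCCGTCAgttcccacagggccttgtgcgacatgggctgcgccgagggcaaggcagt
It held 2 matches. The letters are short and common, at 13.6% of all windows and 15.7% of those of the genes studied, and 4 of 15 NRF2 targets with a window held them.

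Of 7 measured targets of the aryl hydrocarbon receptor, 2 rose in OE33 alone and had a called difference. CYP1A1, a cytochrome P450 induced by the aryl hydrocarbon receptor, had 33.1, 36.9 and 34.0 CPM in exposed and 16.9, 13.8 and 14.6 CPM in unexposed OE33 cells, against 2.95, 3.08 and 2.40 CPM in exposed and 2.84, 2.37 and 3.20 CPM in unexposed FLO1 cells. It rose by 1.22 ± 0.12 in OE33 and differed by 1.25 ± 0.21 (adjusted p = 0.000209). AHRR, the repressor of that receptor, differed by 0.78 ± 0.18 (adjusted p = 0.0157), and the remaining 5 had no called difference. Among those 5, NFE2L2, the gene of NRF2, fell in OE33 (-0.31 ± 0.08) and CYP1B1, another cytochrome P450, fell in FLO1 (-0.39 ± 0.09), both named after their values were seen. The AHRR call was lost without OE33 ABS replicate 2 and without unexposed OE33 replicates 1 and 3. JCAD, a cell junction protein, had 37.2, 40.2 and 39.7 CPM in exposed and 21.4, 21.2 and 21.8 CPM in unexposed OE33 cells, against 184, 188 and 181 CPM in exposed and 184, 193 and 190 CPM in unexposed FLO1 cells (difference 0.96 ± 0.15). GLCCI1, a glucocorticoid-induced gene, differed by 1.05 ± 0.18 and SLC29A3, a nucleoside transporter, by 0.88 ± 0.17. AJUBA, a LIM protein and YAP target, differed by 0.58 ± 0.11. Of 20 measured YAP and TEAD targets 2 had a called higher response in OE33 and 1 a lower one, and 17 were not called. SPOCK1, a matrix proteoglycan, and ANKRD33B differed by 1.30 ± 0.25 and 1.06 ± 0.24, from levels near 1 CPM in unexposed OE33 cells and high levels in FLO1 (SPOCK1 72.3 to 91.2 CPM and ANKRD33B 262 to 286 CPM); the ANKRD33B call was lost without unexposed OE33 replicate 1. MYH10, a non-muscle myosin, had 1.03, 0.762 and 2.39 CPM in exposed and 0.743, 0.705 and 0.584 CPM in unexposed OE33 cells. Its difference of 1.36 ± 0.33 was 0.71 and not called without OE33 ABS replicate 3, the library with fibroblast markers. The MYH10 difference was not called either without unexposed OE33 replicate 2 or 3. MYH10 and ANKRD33B reached the minimum of 1 CPM in OE33 only through the exposed group. ID3, a target of BMP signalling, fell in OE33 by 0.85 on the log2 scale, with a difference of -0.59 ± 0.15 whose call was lost without 7 of the 12 libraries in turn.

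RNA of the mitochondrial genome fell in FLO1 for several tRNAs. Of 10 measured mitochondrial tRNAs 6 fell in FLO1, none changed in OE33, and 3 had a called higher response in OE33 (median difference 0.47). MT-TF, the phenylalanine tRNA gene, had 29.01, 28.3 and 27.02 CPM in exposed and 25.7, 22.4 and 24.2 CPM in unexposed OE33 cells, against 59.7, 45.6 and 56.4 CPM in exposed and 198.5, 178 and 162.5 CPM in unexposed FLO1 cells. It fell by 1.79 on the log2 scale in FLO1 and differed by 2.03 ± 0.16 (adjusted p = 1.13e-11), the largest positive difference among the 275 called ones. MT-TV, the valine tRNA gene, had 23.9, 27.9 and 26.2 CPM in exposed and 27.3, 28.0 and 33.9 CPM in unexposed OE33 cells, against 76.5, 48.5 and 63.8 CPM in exposed and 154, 167 and 167 CPM in unexposed FLO1 cells (difference 1.25 ± 0.17). Libraries were enriched for polyadenylated RNA, and whether tRNA reads came from longer transcripts was not tested. Of the 13 mitochondrial mRNAs 5 rose in OE33 and 1 fell in FLO1. That gene was MT-ND2, a subunit of complex I, with 1448, 1523 and 1571 CPM in exposed and 1167, 1078 and 1280 CPM in unexposed OE33 cells. It had 1679, 1146 and 1567 CPM in exposed and 1708, 1853 and 1936 CPM in unexposed FLO1 cells, a difference of 0.76 ± 0.13 (adjusted p = 0.000333). Its FLO1 call was lost without FLO1 ABS replicate 2 and without unexposed FLO1 replicate 3, and its OE33 call without unexposed OE33 replicate 2.

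The remaining genes with opposite calls include regulators of cilia, clock and cytokine signalling. FOXJ1, the master factor of motile cilia, had 1.58, 1.12 and 1.09 CPM in exposed and 3.16, 2.12 and 2.27 CPM in unexposed OE33 cells, against 2.95, 3.54 and 2.02 CPM in exposed and 0.0737, 0.257 and 0.419 CPM in unexposed FLO1 cells. The difference was -4.42 ± 0.47 (adjusted p = 4.25e-08), but FOXJ1 reached the minimum of 1 CPM in FLO1 only through the exposed group, so that it had to differ there. A mean under 1 CPM in at least 1 of the 4 groups was found for 157 of the 11393 genes and 12 of the 275, among them also SCIRT, ANKRD1, DNAJB5, MYH10 and ANKRD33B. Such genes reached the minimum in that line only through its other group. The FLO1 rise of FOXJ1, 3.45 ± 0.36, held throughout, while its OE33 fall lost its call without OE33 ABS replicates 2 and 3 and each of the 3 unexposed OE33 libraries in turn. LIF, an interleukin-6 family cytokine, had 138, 130 and 116 CPM in exposed and 180, 170 and 170 CPM in unexposed OE33 cells, against 172, 230 and 190 CPM in exposed and 122, 112 and 129 CPM in unexposed FLO1 cells (difference -1.09 ± 0.13). CDC6, which licenses replication origins, had 141, 152 and 148 CPM in exposed and 179, 184 and 185 CPM in unexposed OE33 cells, against 149, 113 and 140 CPM in exposed and 82.7, 100 and 85.2 CPM in unexposed FLO1 cells (difference -0.83 ± 0.10). CIART, a repressor of the circadian clock, differed by -1.16 ± 0.20 and LINC00511, a long non-coding RNA, by -0.74 ± 0.13. In the other direction 6 genes rose in OE33 and fell in FLO1. TMEM131L differed by 1.01 ± 0.14, SORL1, a sorting receptor, by 0.81 ± 0.16, ADM, adrenomedullin, by 0.63 ± 0.12, DAZAP2 by 0.57 ± 0.09 and MKRN1, a ubiquitin ligase, by 0.50 ± 0.10, with MT-ND2 the sixth. Of the 12 fits that left out 1 library, the opposite calls held in 11 for HMGCS1, in 10 for LIF and CDC6, in 9 for MT-ND2 and DAZAP2, in 8 for TMEM131L and DNAJB5, in 7 for FOXJ1, STARD4 and CIART, in 6 for IDI1 and LINC00511, in 3 for MKRN1 and in 2 for ADM and SORL1. As a whole the class held 10 to 43 genes when 1 library was left out, the most without FLO1 ABS replicate 2, and 5 in the fit of the 12 shControl libraries. Another 1 of the 20 has no symbol.

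Among genes specific to FLO1, several outside these lists had differences as large. SCIRT, an RNA annotated antisense, had 1.26, 1.02 and 0.838 CPM in exposed and 1.56, 1.20 and 1.24 CPM in unexposed OE33 cells, against 2.92, 1.84 and 2.28 CPM in exposed and 0.295, 0.225 and 0.152 CPM in unexposed FLO1 cells (difference -3.66 ± 0.43). SCIRT too reached the minimum of 1 CPM in FLO1 only through the exposed group. Whether counting used strand is not given in the sources used here, so its reads cannot be told apart from those of a gene on the other strand. ANKRD1, a YAP target of stressed muscle and epithelium, differed by -2.13 ± 0.33. It averaged 0.923 CPM in unexposed and 3.74 CPM in exposed FLO1 cells, so it too reached the minimum there only through the exposed group. Of the genes that fell in FLO1 alone, TGFBR3, the TGF-beta co-receptor betaglycan, had 17.8, 18.3 and 20.2 CPM in exposed and 15.04, 16.4 and 20.3 CPM in unexposed OE33 cells, against 37.7, 28.6 and 32.8 CPM in exposed and 48.8, 53.7 and 49.1 CPM in unexposed FLO1 cells (difference 0.80 ± 0.16). BMP4, a BMP ligand, had 0.859 to 1.15 CPM in exposed and 1.604 to 2.28 CPM in unexposed FLO1 cells and differed by 0.95 ± 0.20, a call lost without unexposed FLO1 replicate 3. FZD4, a Wnt receptor, differed by 0.98 ± 0.21. Its change in OE33 of 0.50 ± 0.16 was not called (adjusted p = 0.0667), though no smaller than that in FLO1 of -0.48 ± 0.14 (adjusted p = 0.0445). Its class held in 6 of the 12 fits that left out 1 library.

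Of the 108 shared genes, 95 rose and 13 fell. Their median response was 0.49 in OE33 and 0.54 in FLO1 among those that rose, and -0.34 and -0.33 among those that fell. NFKB2, a subunit of the non-canonical NF-kB pathway, had 224, 220 and 219 CPM in exposed and 143, 128 and 124 CPM in unexposed OE33 cells, and 333, 461 and 356 CPM in exposed and 184, 183 and 209 CPM in unexposed FLO1 cells. It rose by 0.77 ± 0.10 in OE33 and 0.96 ± 0.10 in FLO1. IL6R, the interleukin-6 receptor, rose by 0.90 ± 0.11 in OE33 and 1.40 ± 0.12 in FLO1, and SQSTM1, an autophagy receptor, by 0.64 ± 0.07 and 0.30 ± 0.07. The SQSTM1 rise in FLO1 was not called without FLO1 ABS replicate 2 or unexposed FLO1 replicates 1 and 2. ID1, an inhibitor of differentiation driven by BMP signals, fell alike in both: 251, 232 and 240 CPM in exposed against 429, 417 and 388 CPM in unexposed OE33 cells, and 145, 155 and 153 CPM in exposed against 254, 252 and 251 CPM in unexposed FLO1 cells. It changed by -0.75 ± 0.09 in OE33 and -0.78 ± 0.09 in FLO1. In 6 shared genes the size still differed, and these were named after their values were seen. NFATC2 (-0.99 ± 0.17), LBH (-0.78 ± 0.15), MANF (-0.65 ± 0.14), CHMP1B (-0.58 ± 0.10) and KLF4 (-0.49 ± 0.13) rose less in OE33, and LAMB3, a laminin chain, rose more (0.59 ± 0.16). The differences of LAMB3 and KLF4 were called under 7 and 6 of the 20 alternatives. Of the 108, 73 were called with the same sign in the APE1-depleted cells of both lines. Of all genes tested, 6.91% were called in depleted OE33 cells (4.31% rose and 2.6% fell) and 10.1% in depleted FLO1 cells (5.93% rose and 4.16% fell). The shared class held 28 genes in the fit of the 12 shControl libraries.

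**Figure D3:**
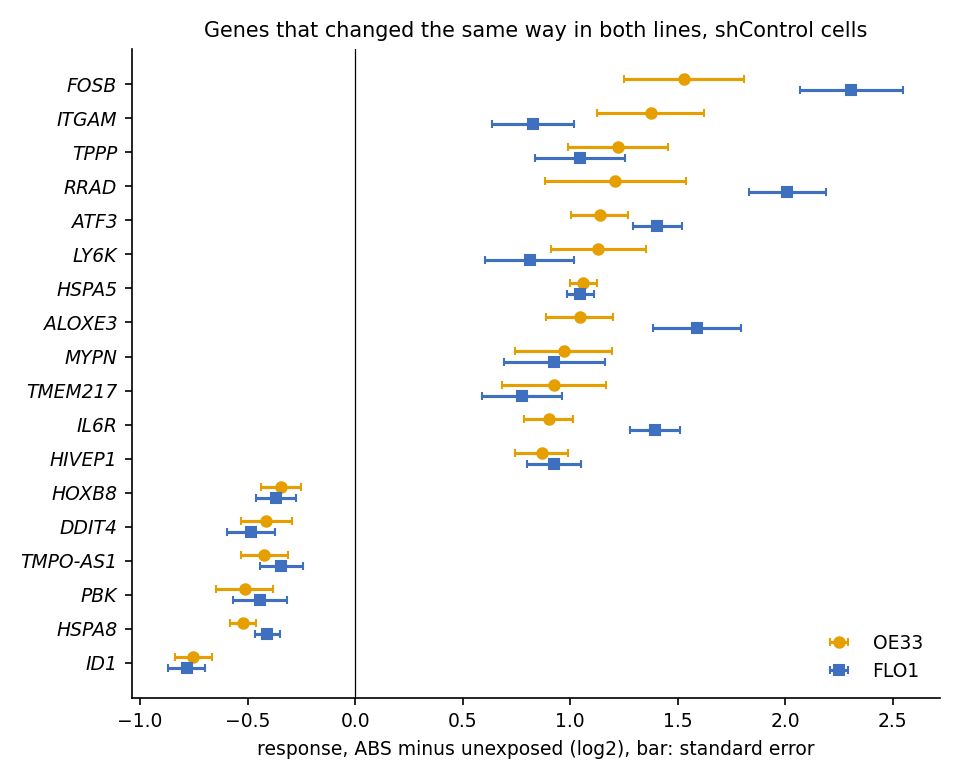
Response to ABS (log2, bars show the standard error) of 18 genes that changed the same way in both lines, shControl cells, 3 libraries per group; circles are OE33 and squares FLO1. HSPA5 and ID1 nearly coincide, at 1.06 and 1.05 and at -0.75 and -0.78, while FOSB and RRAD lie farther out in FLO1, with no called difference for either. RRAD averaged 0.755 CPM in unexposed and 1.72 CPM in exposed OE33 cells. Its OE33 call was lost without OE33 ABS replicate 2 or 3, without unexposed OE33 replicate 2 or 3, and in the fit of the 12 shControl libraries. RRAD, ITGAM and TMEM217 in OE33 and ALOXE3 in FLO1 reached the minimum of 1 CPM only through the exposed group.

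Several lists held few or no called differences. Of all 11393 genes 2.41% were called, and at that share lists this small can hold none, so these counts do not set them apart. None of 13 NF-kB targets, 23 base excision repair genes, 24 lysosome and autophagy genes, 9 acid and bicarbonate transport genes or 6 bile acid receptor and transporter genes was called, at a median standard error of 0.16 over the 11393 genes. Of the 13 NF-kB targets 5 rose in OE33 and 7 in FLO1, none fell, and their median difference was -0.08. Of 32 DNA replication genes 10 fell in OE33 and 1 fell and 1 rose in FLO1, yet CDC6 alone had a called difference. Of 26 mitosis genes 9 fell in FLO1 and none in OE33, and 1 had a called difference, KIF20A, a mitotic kinesin (0.39 ± 0.10), whose call was lost without 6 of the 12 libraries in turn. OAS3 alone of 24 interferon-stimulated genes was called, at 0.68 ± 0.15.

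**Figure D4:**
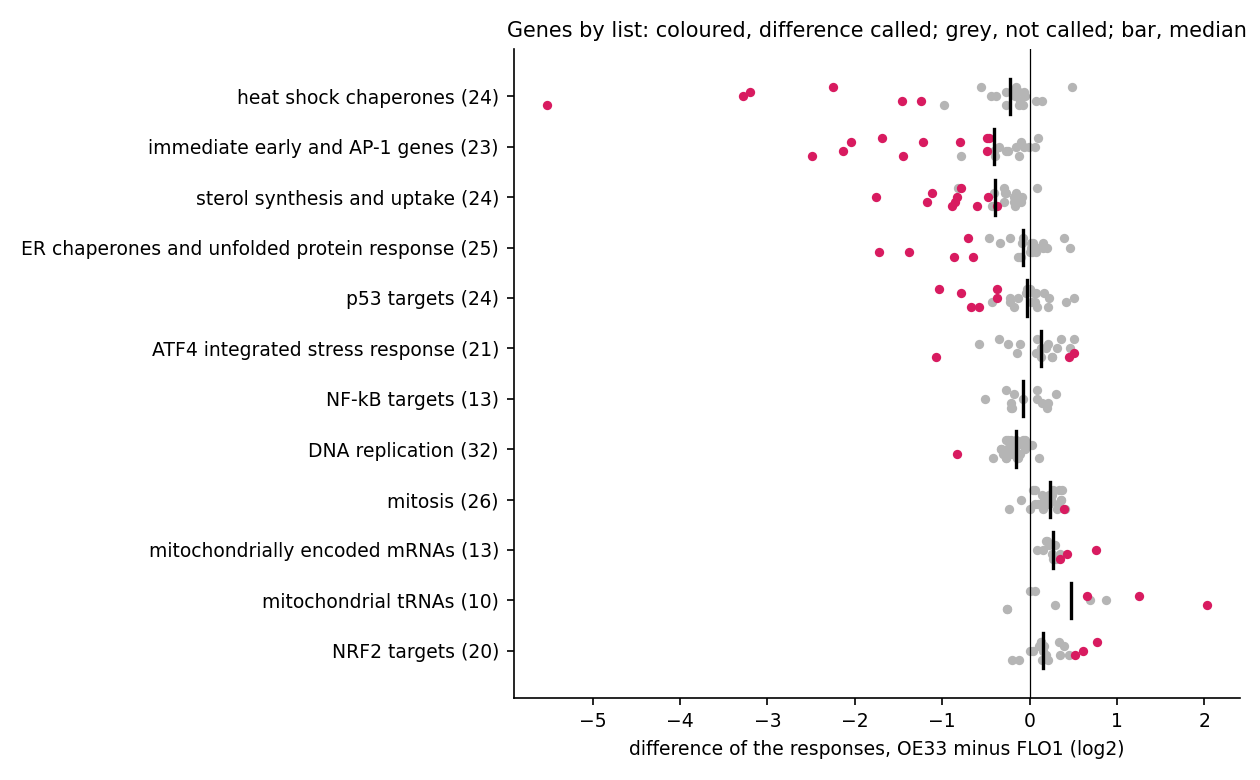
Difference between the responses, OE33 minus FLO1 (log2), for each measured gene of 12 lists, with the number of genes in brackets. Coloured points are called differences, grey points are not called and the bar is the median; heat shock, immediate early and sterol genes reach far to the left, to -5.53 for HSPA6, and mitochondrial tRNAs to 2.03 on the right for MT-TF.

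The difference between lines was measured again in the APE1-depleted cells, as the mean of shAPE1#1 and shAPE1#3, from other libraries of the same fit. Of the 275 genes 272 (98.9%) had the same sign there, 198 were called with that sign and none with the other, against 6.85% of all genes tested called in either direction, 3.51% higher and 3.34% lower. Among the 11118 genes with no called difference the share with the same sign was 66.0%. HSPA6 differed by -3.76 ± 0.25 in depleted cells against -5.53 ± 0.34 in shControl cells. HSPA1A did so by -2.14 ± 0.10 against -3.29 ± 0.14. FOXJ1 differed by -5.32 ± 0.51 against -4.42 ± 0.47, but it was kept in FLO1 only through the exposed shControl group. NR4A1 differed by -2.75 ± 0.17 and CYP1A1 by 1.6 ± 0.14. ATF4 (0.11 ± 0.08), ASNS (-0.04 ± 0.07), MYH10 (0.21 ± 0.24) and TMEM131L (0.21 ± 0.10) were not called in depleted cells. Of the 108 genes shared in shControl cells, 26 had a called difference in depleted cells with the sign of their shControl difference. Another 2 had one with the other sign. Among the 26 were FOSB (-2.41 ± 0.27), ATF3 (-0.84 ± 0.12) and IL6R (-0.76 ± 0.11). Whether these differences changed with depletion was not tested.

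**Figure D5:**
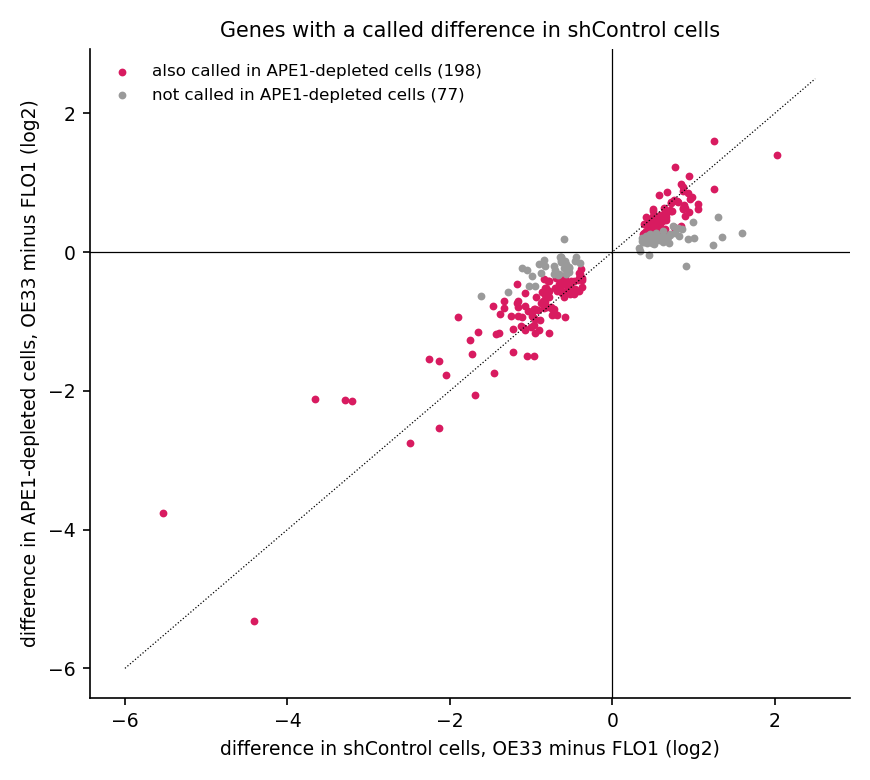
Difference of the responses, OE33 minus FLO1 (log2), in APE1-depleted cells (vertical axis, mean of both shRNAs) against shControl cells (horizontal axis) for the 275 genes called in shControl cells. Coloured points were also called in depleted cells (198) and grey points were not (77); the dotted line marks equal values, and 272 of the points have the same sign on both axes.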

How the data were processed

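The authors deposited raw read counts per gene for 36 libraries of poly(A) RNA, 3 independent biological replicates in each of 12 groups, and the 12 shControl libraries form the comparison described here. Per the submitters' processing notes, Trimmomatic 0.36, STAR 2.5.2b, and featureCounts of Subread 1.5.2 were used with GRCh38. For the annotation release, the strand setting and reads with several matches, nothing is stated in the labels or headers. The table held 57500 gene IDs, of which 40907 matched a symbol. The 602 IDs without coordinates in GENCODE 29 held 0.0183% of counts. Responses are relative to the total of each library scaled by its TMM factor, while the CPM levels given use the unscaled total.

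Counts were fitted with edgeR 4.0.16 (quasi-likelihood test, TMM factors, filterByExpr, robust) in R 4.3.3, with 1 coefficient for each of the 12 groups. The difference was a contrast, p-values were adjusted by Benjamini-Hochberg over all 18199 genes tested, and 0.05 was the threshold. Levels are CPM by library size. Fold changes are log2 with standard errors. The fit was tested on simulated data. Alternatives were a fit of the 12 libraries alone, RLE factors, DESeq2 1.42.0, no filter on low counts, a minimum of 5 CPM, a replicate block, and leaving out each library. A GC correction and the removal of both libraries that stood apart were chosen after seeing the data.

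Genes were picked for naming by rule. These were the 12 most positive and 12 most negative called differences and the genes with opposite calls. They were also the shared genes with the largest smaller change (12 that rose and 6 that fell). The 6 largest each way among genes called in 1 line and up to 4 from each list completed the set. Not all of these are described above. Of 19 alternatives, the differences of CAMK2N2, SNRPGP10, FYN and LAT2, not described, lost their call under 12, 11, 9 and 6. Those of SPTBN5, RGS2, DNAH5 and DNAJC9-AS1, not described either, did so under 3, 2, 2 and 1. BAG3, HSPH1, HSP90AA1, HSP90AB1, MAFF, MDM2, NQO1, HMOX1 and MANF were added after their values were seen. The members and gene lists were chosen with earlier results of these data known. A withheld item is not reported here.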

Additional observations from a re-analysis of the deposited data

Results flagged for a closer look

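The response to ABS differed between OE33 and FLO1 by the test of the difference itself for 275 of the 11393 genes. Among them, 19 named genes were also called in opposite directions in the lines. The differences, OE33 minus FLO1 on the log2 scale, were -5.53 for HSPA6, -4.42 for FOXJ1, -3.29 for HSPA1A, -3.20 for HSPA1B, -2.25 for DNAJB1 and -1.90 for DNAJB5. They were -1.75 for STARD4, -1.16 for CIART, -1.11 for HMGCS1, -1.09 for LIF, -0.89 for IDI1, -0.83 for CDC6 and -0.74 for LINC00511. Those of the opposite sign were 0.50 for MKRN1, 0.57 for DAZAP2, 0.63 for ADM, 0.76 for MT-ND2, 0.81 for SORL1 and 1.01 for TMEM131L. Of these genes, FOXJ1 reached the minimum of 1 CPM in FLO1 only through the exposed group, so that it had to differ there. DNAJB5 averaged 0.758 CPM in exposed OE33 cells, so it reached that minimum in OE33 only through the unexposed group. Groups of 3 libraries were not tested for single outlying values.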

How the results depend on the processing

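No named result reversed under any alternative, and 62 of 153 named results lost their call in the fit of the 12 shControl libraries alone, against none with DESeq2. Among calls described above as lost without single libraries, the fit of the 12 also lost the differences of DUSP10, AHRR, MYH10, BMP4, ID3 and KIF20A. The fit of the 12 lost the OE33 calls of DNAJB5, FOXJ1 and MT-ND2 and the FLO1 calls of HMGCS1, SQSTM1 and MT-ND2 as well. In that fit 90 genes differed (33 higher in OE33, 57 lower), with 28 shared, 5 opposite, 27 specific to OE33 and 47 to FLO1. DESeq2 gave 483 (256 higher, 227 lower), with 196 shared, 37 opposite, 188 specific to OE33 and 196 to FLO1. The GC correction gave 816 (471 higher, 345 lower), with 313 shared, 68 opposite, 321 specific to OE33 and 304 to FLO1. Without both libraries that stood apart 587 differed (370 higher), with 217 specific to OE33 and 214 to FLO1. Leaving out 1 library gave 179 to 798 genes that differed, 72 to 522 higher, 103 to 276 lower, 69 to 191 shared, 10 to 43 opposite, 54 to 330 specific to OE33 and 86 to 258 to FLO1. The highest of these came without FLO1 ABS replicate 2, apart from the shared genes, which were most without FLO1 ABS replicate 1. The share of higher calls was 45.1%, against 53% with DESeq2, 57.7% with the GC correction, 63% without both libraries and 65.4% without FLO1 ABS replicate 2. The cause was not tested. Same-numbered libraries did not deviate together (r between 0.03 and 0.05 in OE33 and -0.25 and -0.05 in FLO1), and the replicate block gave 218 (94 higher, 124 lower). At a median standard error of 0.16 over the 11393 genes, small differences were not detectable, and genes near 1 CPM rest on few reads.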
